A study of Capsella grandiflora x Capsella rubella and Capsella rubella and Capsella grandiflora with 8 samples.

Results

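The 100 genes with most reads in young Capsella seeds were described, out of 26521 genes in the table of counts. They were chosen by CPM, the count of a gene per 1000000 counts of its library, as the 100 genes of highest mean CPM over all 8 libraries. All 100 passed the filter on low counts, which kept 21214 genes for testing. Because the choice was made on these same values, the levels, ranks and shares below are descriptions with no test. The choice used the mean over all crosses and no comparison between them, but a gene that is very high in 1 cross or in 1 library enters more easily.

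A developing seed of the Brassicaceae holds an embryo and the endosperm, the tissue that nourishes it, both formed after fertilization and enclosed in a seed coat made by the mother. Storage proteins such as the 12S cruciferins and 2S albumins, and the oleosins that coat oil bodies, are laid down mainly in the embryo as it matures. A sequencing library samples RNA in proportion to its abundance, so a small set of genes can take a large part of the reads, and each gene's CPM depends on all others.

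The seeds came from the selfing species C. rubella (Cr), the outcrossing species C. grandiflora (Cg) and both directions of the cross between them, Cr × Cg and Cg × Cr, with the female parent named first. The plants used for gene expression were of 1 accession per species, Cr48.21 and Cg4a, and all mothers were emasculated before pollination by hand. Each cross had 2 biological replicates of 300 to 500 pooled seeds harvested at 6 days after pollination (DAP), so n = 2 for every mean and SD. The same day was not the same stage in the study's seed sections. By then the endosperm had divided into cells in both parental species, with embryos at the torpedo stage. In Cr × Cg it had not, and embryos lagged well behind, while in Cg × Cr it had done so early. The study asked how seeds of the reciprocal hybrids differ from those of the parental species.

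Libraries held between 24838286 and 34290034 counts, and the 2 libraries with fewest counts were replicate 2 of Cr × Cg and of Cr. Reads of all crosses were aligned to the C. rubella genome, and reads that mapped to several places were discarded before counting, so genes with near-identical copies are counted low. Counts were not divided by gene length, so a long gene gathers more reads than a short one of the same abundance. In whole seeds, fewer cells of a type and less RNA per cell cannot be told apart.

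The 100 genes took 10.95 and 9.36% of the reads in Cr seeds, 12.62 and 13.65% in Cg, 13.46 and 14.67% in Cr × Cg, with 11.89 and 12.27% in Cg × Cr. The share was lowest in both Cr libraries, and the ranges of the 4 crosses overlapped only between Cg and Cr × Cg. The means were 10.15% ± 1.13 (SD, n = 2) in Cr, 12.08% ± 0.269 in Cg × Cr, 13.14% ± 0.725 in Cg and 14.07% ± 0.855 in Cr × Cg. When the members were chosen on one replicate number and measured in the libraries of the other, the shares were 10.32 and 9.05% in Cr, 12.51 and 12.98% in Cg, 13.26 and 13.94% in Cr × Cg, with 11.77 and 11.54% in Cg × Cr.

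**Figure D1:**
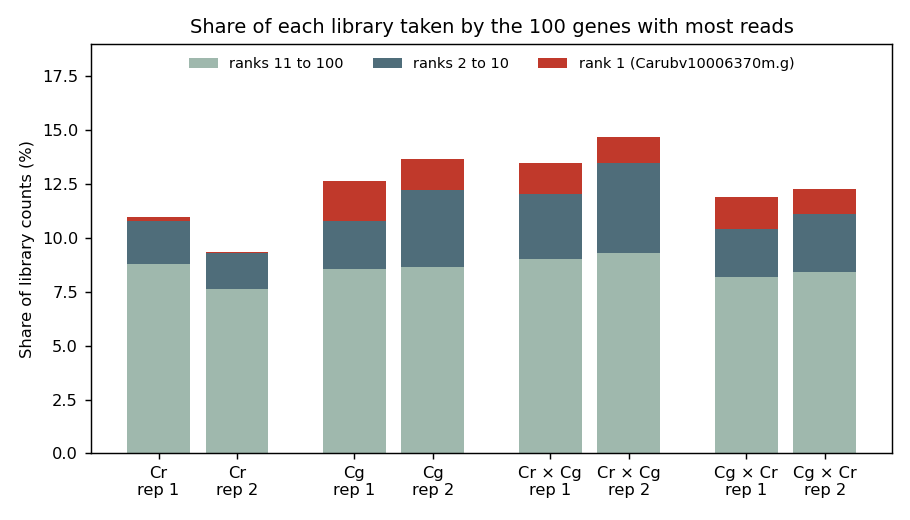
Share of each library's counts (y axis, percent) taken by the 100 genes, with 1 bar for each of the 8 libraries (x axis), divided into the gene with most reads, ranks 2 to 10 and ranks 11 to 100. The gene with most reads took between 1.16 and 1.84% of the 6 libraries of Cg and the hybrids and at most 0.142% of a Cr library.

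Most of the difference from Cr lay in the first 10 genes, as the plot of shares by library shows. These 10 took 2.18 and 1.72% of the Cr libraries, 4.06 and 5.01% of Cg, 4.46 and 5.36% of Cr × Cg, and 3.71 and 3.86% of Cg × Cr. The 90 genes of ranks 11 to 100 took 8.77 and 7.64%, 8.56 and 8.64%, 9.002 and 9.31%, and 8.17 and 8.41% of the same libraries. For these 90 genes the Cr range held the ranges of Cg and Cg × Cr, and only Cr × Cg lay above every other library. The next 100 genes by mean CPM took between 4.81 and 5.48% of each library.

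The excess of Cr × Cg over Cr was 3.91 percentage points, the sum of 61 genes with a higher and 39 with a lower mean CPM, and it was 2.73 points without the gene with most reads. The excess of Cg over Cr was 2.98 points, or 1.45 without that gene. Cr × Cg lay 0.931 points above Cg and 1.99 points above Cg × Cr, and Cg × Cr lay 1.92 points above Cr. Without the gene with most reads, the Cr libraries stood at 10.81 and 9.29%, Cg at 10.78 and 12.21%, Cr × Cg at 12.06 and 13.50%, and Cg × Cr at 10.41 and 11.11%. Cr × Cg then overlapped with Cg, and Cr, Cg and Cg × Cr all overlapped with each other.

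The set overlapped with the 100 highest genes of each library but did not match them. In all, 210 genes were among the 100 highest of at least 1 library, and 110 of them were outside the set. Between 75 and 85 of the 100 genes were also among the 100 highest of a given library, 39 were in that list in all 8 libraries, 42 in 5 to 7, and 19 in 4 or fewer. The 27 highest genes held 50% of the reads of the 100. The gene with most reads held 8.82% of them and was 17.4-fold higher in mean CPM than the last. At the limit of the list, ranks 99 and 100 were Carubv10002048m.g at 638.5 and Carubv10005255m.g at 627.7 CPM, and the first 2 genes outside it were Carubv10013364m.g at 627.2 and Carubv10026443m.g at 625.0 CPM.

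For 49 of the 100 genes the highest of the 8 libraries was within 2-fold of the lowest, which held for 38.2% of the 18444 tested genes with more than 3 counts in every library. The median fold between highest and lowest library was 2.00 for the 100 and 2.33 for those genes. Those genes include ones with far fewer counts, where counting noise alone widens the fold. At the other end, 15 of the 100 spanned more than 10-fold, a count given with no share over all genes.

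No product names were used for the genes, except through Arabidopsis thaliana genes paired with them in lists of the study, which hold mainly genes that the study called changed. Of the 100 genes, 18 had such a partner. They are therefore not a sample of the 100, and their roles below are those known in Arabidopsis.

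The gene with most reads was Carubv10006370m.g, paired with AT4G12870, a member of the GILT-like family of thiol reductases. It stood at 1425 and 685 CPM in Cr, 18407 and 14453 in Cg, 14066 and 11757 in Cr × Cg, with 14772 and 11629 in Cg × Cr. Both Cr libraries lay below the other 6, and the range of Cg × Cr overlapped with those of Cg and Cr × Cg. Against Cr, it was 15.6-fold higher in mean CPM in Cg (log2 fold change 3.97, SE 0.45, edgeR quasi-likelihood adjusted p = 0.0017), 12.2-fold higher in Cr × Cg (3.67, adjusted p = 0.0016) and 12.5-fold higher in Cg × Cr (3.62, adjusted p = 0.0047). These 3 comparisons share the Cr libraries, and each call held with any 1 library left out (highest adjusted p = 0.028).

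Carubv10016221m.g, the second by mean CPM, stood at 2178 and 2198 CPM in Cr, 3950 and 5547 in Cg, 7767 and 7536 in Cr × Cg, with 4229 and 3311 in Cg × Cr. Both Cr libraries were the lowest, both Cr × Cg libraries lay above all others, and Cg overlapped with Cg × Cr. In edgeR's test it was higher in Cr × Cg than in Cr (log2 fold change 1.87, SE 0.30, adjusted p = 0.0041), a call that held with any 1 library left out. Its calls in Cg against Cr (1.14, adjusted p = 0.039) and in Cr × Cg against Cg × Cr (1.11, adjusted p = 0.027) were lost without either library of the crosses compared, at adjusted p up to 0.19, and the first also without either Cr × Cg library.

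Carubv10012765m.g, the third by mean CPM, owed its rank to 3 libraries. It stood at 1456 and 1410 CPM in Cr, 947 and 9571 in Cg, 1124 and 12786 in Cr × Cg, with 1205 and 7945 in Cg × Cr. Replicate 2 was the higher library in the 3 crosses other than Cr, and the gene was called in no comparison.

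Carubv10026391m.g, the fourth, was even across the crosses, at 4810 and 3748 CPM in Cr, 4204 and 2712 in Cg, 3884 and 4140 in Cr × Cg, with 3794 and 2967 in Cg × Cr. The ranges overlapped except those of the hybrids with each other, it was called in no comparison, and the log2 fold change of largest size was -0.36, in Cg × Cr against Cr.

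Carubv10024340m.g, the fifth, is paired with AT2G38540, the lipid transfer protein LTP1. It stood at 1967 and 581 CPM in Cr, 2606 and 4892 in Cg, 7366 and 4433 in Cr × Cg, with 2959 and 4041 in Cg × Cr. Cr was lowest in both libraries, and the other crosses overlapped except Cr × Cg with Cg × Cr. By edgeR it rose in Cr × Cg against Cr (log2 fold change 2.26, SE 0.62, adjusted p = 0.034), which was lost without Cr replicate 2 (adjusted p = 0.11), Cr × Cg replicate 1 (0.13) or Cr × Cg replicate 2 (0.063).

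Carubv10027526m.g, the seventh, had its highest values in Cr, at 5371 and 5181 CPM, against 1483 and 783 in Cg, 851 and 1740 in Cr × Cg, with 2372 and 469 in Cg × Cr. It was called in no comparison (edgeR adjusted p = 0.098 for Cg against Cr), and its libraries of Cg × Cr differed over 4-fold. The genes of ranks 6, 8 and 9, Carubv10027976m.g, Carubv10009667m.g and Carubv10021056m.g, were lower in both Cr libraries than in any of the others. Their Cr libraries reached at most 1572, 1140 and 781 CPM, and their other libraries at least 2112, 1502 and 1061 CPM. All 3 were called higher in Cg and in Cr × Cg than in Cr, with log2 fold changes from 1.10 to 2.54, and each of these 6 calls was lost without Cr replicate 2, at edgeR adjusted p from 0.062 to 0.2. All but that of Carubv10021056m.g in Cr × Cg were also lost without other libraries.

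Carubv10005223m.g, the tenth, was the one gene of the 10 that was highest in Cg × Cr, at 2661 and 2414 CPM there, 1117 and 796 in Cr, 1531 and 1860 in Cg, and 1825 and 2067 in Cr × Cg. It was called against Cr in Cg × Cr (log2 fold change 1.38, edgeR adjusted p = 0.029) and in Cr × Cg (1.09, adjusted p = 0.027). Leaving out Cr replicate 2 raised these to 0.2 and 0.17, and the first was also lost without Cr replicate 1 or either Cg × Cr library and the second without either Cr × Cg library.

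**Figure D2:**
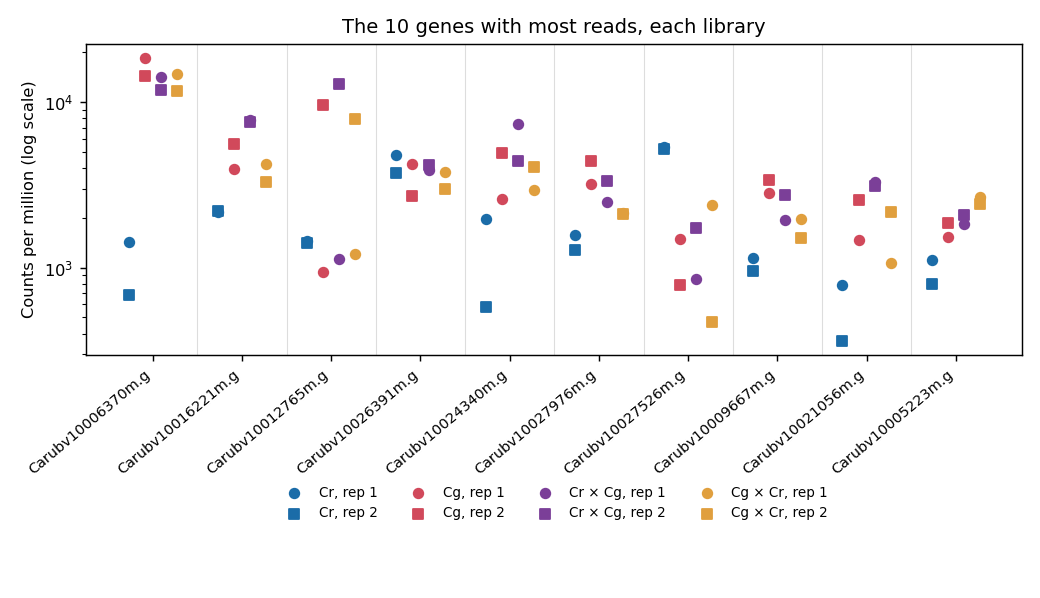
CPM on a log scale (y axis) of the 10 genes of highest mean CPM (x axis, in rank order) in each of the 8 libraries, with circles for replicate 1 and squares for replicate 2, coloured by cross. The first gene is at 685 to 1425 CPM in Cr and at 11629 CPM or more in the other 6 libraries, and the third is at 7945 CPM or more in 3 replicate 2 libraries only.

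Against Cr, 23 of the 100 genes were called higher and 4 lower in Cr × Cg (edgeR's quasi-likelihood test, Benjamini-Hochberg adjusted p under 0.05 over all tested genes), beside 12.4% and 10.3% of all genes tested. The median log2 fold change was 0.16 over the 100 and 0.03 over all tested genes. Shares over all genes tested are given only for this test with all libraries, and not for counts under other settings below. The count of 27 fell to 14 without Cr replicate 1, 8 without Cr replicate 2, 13 without Cr × Cg replicate 1 and 10 without Cr × Cg replicate 2. Beside the gene with most reads, the largest rises among the calls were those of Carubv10014964m.g, Carubv10024341m.g and Carubv10011965m.g, which have no partner. Carubv10014964m.g stood at 330 and 117 CPM in Cr, 867 and 1958 in Cg, 3079 and 2180 in Cr × Cg, with 1415 and 2136 in Cg × Cr. Both Cr libraries were the lowest and both Cr × Cg libraries the highest, and the rise in Cr × Cg (log2 fold change 3.61, SE 0.62, adjusted p = 0.0062) held with any 1 library left out. Carubv10024341m.g rose by 3.15 (adjusted p = 0.034) from 157 and 26.03 CPM in Cr to 961 and 619 in Cr × Cg, and the call was lost without either Cg library or either Cr × Cg library. Carubv10011965m.g rose by 3.13 (adjusted p = 0.017) from 183 and 78.5 CPM to 533 and 1660, and the call was lost without Cr replicate 2 or Cr × Cg replicate 2.

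Of the falls called in Cr × Cg against Cr, the 2 largest were those of the genes also called lower against Cg. Carubv10004613m.g is paired with AT4G39800, MIPS1, the inositol 3-phosphate synthase that makes the first intermediate of inositol synthesis. It stood at 827 and 1325 CPM in Cr, 1571 and 1548 in Cg, 637 and 815 in Cg × Cr, and 87.4 and 80.1 in Cr × Cg. No library of another cross came near the Cr × Cg values. The log2 fold change in Cr × Cg was -3.61 against Cr (SE 0.30, edgeR adjusted p = 0.0008), -4.17 against Cg (adjusted p = 0.00037) and -3.03 against Cg × Cr (adjusted p = 0.0011).

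Carubv10018643m.g is paired with AT5G38160, a lipid transfer protein-like gene of the 2S albumin superfamily. It stood at 1271 and 1073 CPM in Cr, 1933 and 787 in Cg, 1176 and 1267 in Cg × Cr, and 171 and 65.5 in Cr × Cg. The 3 other crosses overlapped, and all their libraries lay above those of Cr × Cg. Its log2 fold change in Cr × Cg was -3.25 against Cr (SE 0.56, edgeR adjusted p = 0.0059), -3.48 against Cg (adjusted p = 0.0073) and -3.29 against Cg × Cr (adjusted p = 0.0058). All 6 of these calls of both genes held with any 1 library left out.

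The other 2 falls against Cr were smaller. Carubv10020984m.g, paired with AT1G76180, the dehydrin ERD14, stood at 639 and 627 CPM in Cr, 703 and 617 in Cg, 224 and 335 in Cr × Cg, with 731 and 1362 in Cg × Cr. Both Cr × Cg libraries lay below all others, with a log2 fold change of -1.11 against Cr (edgeR adjusted p = 0.049), lost without any 1 library of Cr, Cg or Cr × Cg, and of -1.82 against Cg × Cr (adjusted p = 0.0084), lost without Cr × Cg replicate 1 (0.051). Carubv10008014m.g, with no partner, fell by 0.71 from 861 and 898 CPM in Cr to 519 and 507 in Cr × Cg (adjusted p = 0.041), a call lost with any 1 of the 8 libraries left out.

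Marker genes of seed tissues were read beside these falls, as values with no test. Homologues of 5 of 7 embryo regulators of Arabidopsis could be paired (WOX8, WOX9, LEC1, LEC2 and FUS3). Their summed level was 72.3 and 74.4 CPM in Cr × Cg and between 228 and 391 CPM in the other 6 libraries, with none of the 5 at 0 in any library. Those of WOX8, WOX9, LEC1 and FUS3 were lower in both Cr × Cg libraries than in any other, which for LEC1 means 10.3 and 24.4 CPM against 60.6 CPM or more. The LEC2 homologue, Carubv10010882m.g, stood at 29.8 and 37.8 CPM in Cr × Cg, within the 24.0 and 39.5 CPM of Cg × Cr, and at 52.7 CPM or more in the parents.

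The 8 genes paired with 7 endosperm regulators summed to between 59.4 and 230 CPM over the 8 libraries, with 4 of them at 0 counts in at least 1 library, but they differed in direction. In Cr × Cg the homologue of AGL28 stood at 44.8 and 82.5 CPM, against at most 10.8 elsewhere, and that of MEDEA at 7.99 and 7.97 CPM, against at most 0.993. The homologue of ALE1 stood at 8.20 and 15.3 CPM in Cr × Cg, against at least 38.3 elsewhere, and that of ZHOUPI at 6.21 and 6.48 CPM, against at least 15.5. The 3 paired seed coat genes of 8 also went different ways. The MUM4 homologue, needed for mucilage in Arabidopsis, stood at 433 and 499.8 CPM in Cr and between 49.4 and 215 CPM elsewhere. The homologue of TT12, a transporter of flavonoid precursors, was lowest in Cr, at 26.4 and 23.5 CPM, and highest in Cr × Cg, at 146 and 191 CPM, while that of the peroxidase AT3G50990 was highest in Cr, at 156 and 113 CPM. The crosses differed in seed stage at harvest in the study's sections. The part of stage or of these tissues in the differences was not tested, and none of the 4 fruit wall markers was paired.

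Against Cg, 3 of the 100 genes were called higher and 2 lower in Cr × Cg, beside 7.28% and 7.59% of all genes tested, and the median log2 fold change was 0.13 over the 100 and 0.01 over all. The count of 5 was 2 without Cg replicate 1 or without Cg replicate 2, and 3 without either library of Cr × Cg. The 2 falls are those of the MIPS1 and lipid transfer protein-like homologues. The rises were those of Carubv10007604m.g, Carubv10022875m.g and Carubv10004693m.g. Carubv10007604m.g, paired with AT4G12890, a second GILT-like gene, stood at 802 and 621 CPM in Cr, 658 and 907 in Cg, 2612 and 1368 in Cr × Cg, with 826 and 1103 in Cg × Cr. Unlike the GILT-like gene with most reads, it was not low in Cr alone, and both Cr × Cg libraries lay above the other 6. Its log2 fold change was 1.39 against Cg (SE 0.37, edgeR adjusted p = 0.039) and 1.54 against Cr (adjusted p = 0.020). Without Cr × Cg replicate 1 these became 0.2 and 0.1, the call against Cg was also lost without any 1 library of Cg or Cr, and that against Cr without either Cr library.

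Carubv10022875m.g, paired with AT2G47750, GH3.9, of a family of enzymes that conjugate amino acids to hormones, had values that went with the mother. It stood at 1713 and 1312 CPM in Cr and 1818 and 1434 in Cr × Cg, but at 791 and 748 in Cg and 800 and 621 in Cg × Cr. The 4 libraries with a Cr mother did not overlap with the 4 with a Cg mother. Cg against Cr (log2 fold change -0.96, edgeR adjusted p = 0.053) and Cg × Cr against Cr (-1.11, adjusted p = 0.0503) missed the threshold. Cr × Cg was higher than Cg (log2 fold change 1.12, SE 0.27, edgeR adjusted p = 0.030) and than Cg × Cr (1.28, adjusted p = 0.013). The first call was lost without any 1 library of Cg or Cr × Cg, at adjusted p up to 0.13, and the second without Cg × Cr replicate 2 or Cr × Cg replicate 1.

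Of the 100 genes, 2 were called above and 2 below both parents in Cr × Cg, beside 3.72% and 4.4% of all genes tested. The lower genes are the MIPS1 and lipid transfer protein-like homologues. The higher genes are Carubv10007604m.g and Carubv10004693m.g, which stood at 1530 and 1530 CPM in Cr, 1334 and 1460 in Cg, 2552 and 2951 in Cr × Cg, with 1587 and 1236 in Cg × Cr. Its libraries of Cr × Cg lay above all others, and Cg × Cr overlapped with both parents. The log2 fold change was 0.91 against Cr (edgeR adjusted p = 0.034), 1.03 against Cg (adjusted p = 0.032) and 1.05 against Cg × Cr (adjusted p = 0.020). The calls against the parents were lost without any 1 library of Cr, Cg or Cr × Cg, and the last without replicate 2 of either hybrid. The count of 4 was 2 without either library of Cr or of Cg.

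In Cg × Cr, 0 of the 100 genes were called higher and 2 lower than in Cg, beside 1.24% and 1.32% of all genes tested, and the median log2 fold change was -0.15 over the 100 and 0.02 over all. At an unadjusted p under 0.05, edgeR gave 4 higher and 12 lower, and DESeq2 called 2 higher and 9 lower. With no share over all genes beside them, these counts do not set the 100 apart from other genes. The count of 2 was 1 without any 1 library of Cg or Cg × Cr. The larger fall was in Carubv10027521m.g, paired with AT5G46960, of the superfamily of invertase and pectin methylesterase inhibitors. It stood at 739 and 647 CPM in Cr, 3443 and 1684 in Cg, 1207 and 1387 in Cr × Cg, with 153 and 293 in Cg × Cr. The 4 crosses did not overlap, and Cg × Cr lay below both parents. Its log2 fold change was -3.56 against Cg (SE 0.45, edgeR adjusted p = 0.0078), a call that held with any 1 library left out, and -1.66 against Cr (adjusted p = 0.057), which missed the threshold. It was also higher in Cg than in Cr (1.90, adjusted p = 0.024), a call lost without either Cr library or Cg replicate 1.

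The other gene lower in Cg × Cr than in Cg was Carubv10003889m.g, with no partner, at 191 and 321 CPM in Cr, 1155 and 1009 in Cg, 819 and 1165 in Cr × Cg, with 324 and 364 in Cg × Cr. Its values in Cg × Cr were near those of Cr, and those in Cr × Cg overlapped with Cg, so each hybrid lay near the species of its father. In edgeR's test it was higher in Cg (log2 fold change 2.11, SE 0.31, adjusted p = 0.0056) and in Cr × Cg (2.03, adjusted p = 0.0038) than in Cr, and both calls held with any 1 library left out. The fall in Cg × Cr against Cg was -1.69 (adjusted p = 0.033), lost without any 1 library of these crosses, and Cr × Cg was 1.62 above Cg × Cr (adjusted p = 0.0085), lost without Cg × Cr replicate 1 or Cr × Cg replicate 2.

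Against Cr, 6 of the 100 genes were called higher and 0 lower in Cg × Cr, beside 4.56% and 1.91% of all genes tested, and the median log2 fold change was -0.08 over the 100 and 0.01 over all. At an unadjusted p under 0.05, edgeR gave 13 higher and 7 lower, and DESeq2 called 11 higher and 6 lower, again with no share over all genes beside them. The count of 6 was 2 without Cg × Cr replicate 1 and 1 without Cg × Cr replicate 2 or without Cr replicate 2. The called genes with the largest rises were Carubv10006370m.g, Carubv10011965m.g (log2 fold change 2.97, edgeR adjusted p = 0.048) and Carubv10014964m.g (2.96, adjusted p = 0.030), while Carubv10024341m.g, at 3.21, missed the threshold (adjusted p = 0.070). Carubv10011965m.g stood at 694 and 1400 CPM in Cg × Cr, and its call was lost without any 1 library of Cr, Cg or Cg × Cr. That of Carubv10014964m.g was lost without Cr replicate 2, Cr × Cg replicate 1 or either library of Cg × Cr. No gene of the 100 was called in the same direction against both parents in Cg × Cr, beside 0.212% of tested genes higher and 0.245% lower. The count was 1 without Cg replicate 1 or without Cg replicate 2. At an unadjusted p under 0.05 in both comparisons 0 were higher and 1 lower, and DESeq2 called 0 higher and 1 lower.

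Between the parental species, 16 of the 100 genes were called higher and 1 lower in Cg than in Cr, beside 7.66% and 5.38% of all genes tested, with a median log2 fold change of 0.06 over the 100 and 0.01 over all. The count of 17 was 10 without Cg replicate 1, 4 without Cg replicate 2, 7 without Cr replicate 1 and 4 without Cr replicate 2. After Carubv10006370m.g, the largest rises called in Cg were those of Carubv10024341m.g (log2 fold change 3.39, edgeR adjusted p = 0.041), Carubv10011965m.g (2.75, adjusted p = 0.040) and Carubv10014964m.g (2.67, adjusted p = 0.026). Carubv10024341m.g reached 810 and 1107 CPM in Cg, Carubv10011965m.g 1015 and 735, and neither was above 183.2 CPM in a Cr library. All 3 calls were lost with some library left out, at adjusted p up to 0.17. The 1 gene called lower was Carubv10024488m.g, with no partner, at 1533 and 1313 CPM in Cr, 486 and 240 in Cg, 629 and 1164 in Cr × Cg, with 766 and 447 in Cg × Cr. Cr was highest in both libraries and the hybrids overlapped with each other, and the log2 fold change of -1.95 (adjusted p = 0.030) was lost without either Cr library or Cg replicate 2.

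For the 17 genes called between the parental species, each hybrid was placed between the parents on the log2 scale, with 0 for the Cr mean and 1 for the Cg mean. Cr × Cg had a median position of 0.929, from 0.338 to 1.62, with 15 of the 17 genes nearer Cg and 7 of these beyond it. Cg × Cr had a median of 0.624, from -0.866 to 1.12, with 9 nearer Cg and 2 beyond it. The lowest position was that of Carubv10027521m.g in Cg × Cr. These positions are descriptions, since the parental libraries both chose the genes and set the scale. Of the 17 genes, 16 were higher in Cg. For such a gene, a hybrid at the plain mean of both parental CPM values already lies above 0.5 on the log2 scale. Being nearer Cg is therefore partly set by the scale.

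Between the hybrids, 15 of the 100 genes were called higher and 7 lower in Cr × Cg relative to Cg × Cr, beside 11.6% and 13% of all genes tested. The median log2 fold change was 0.34 over the 100 and -0.02 over all, and 75 of the 100 had a positive value. The count of 22 was 10 without Cg × Cr replicate 1, 5 without Cg × Cr replicate 2, 11 without Cr × Cg replicate 1 and 7 without Cr × Cg replicate 2. The largest rise called was that of Carubv10027521m.g (log2 fold change 2.63, SE 0.43, edgeR adjusted p = 0.0049), which held with any 1 library left out.

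Carubv10027450m.g, paired with AT5G59845, a GASA-like gene of the cysteine-rich gibberellin-regulated proteins, stood at 965 and 1125 CPM in Cr, 2591 and 1855 in Cg, 2772 and 3003 in Cr × Cg, with 1247 and 646 in Cg × Cr. It was high in Cg and Cr × Cg and low in Cr and Cg × Cr, with no overlap between these pairs of crosses. Its log2 fold change in Cr × Cg was 1.69 against Cg × Cr (SE 0.36, edgeR adjusted p = 0.012) and 1.54 against Cr (adjusted p = 0.018). The first was lost without Cr × Cg replicate 2 (0.055), and with a value at the threshold without Cg × Cr replicate 2 (0.05), and the second without either Cr library or Cr × Cg replicate 2. Carubv10009402m.g, with no partner, stood at 1179 and 1813 CPM in Cr × Cg, 627 and 527 in Cg × Cr, 1900 and 834 in Cr, with 569 and 701 in Cg. Its values were higher with a Cr mother, and the rise of 1.46 in Cr × Cg against Cg × Cr (adjusted p = 0.039) was lost without either Cg library, either Cg × Cr library or Cr × Cg replicate 2.

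The largest fall called was in Carubv10025489m.g, paired with AT2G27380, EPR1, an extensin-like proline-rich protein of the cell wall. It stood at 850 and 362 CPM in Cr, 610 and 167 in Cg, 158 and 19.9 in Cr × Cg, with 1396 and 5522 in Cg × Cr. Both Cg × Cr libraries lay above all others and both Cr × Cg libraries below, but replicates differed by more than 2-fold in every cross. The log2 fold change of -5.20 (SE 1.35, edgeR adjusted p = 0.035) was lost without either Cr library or replicate 2 of either hybrid, at adjusted p up to 0.1.

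**Figure D3:**
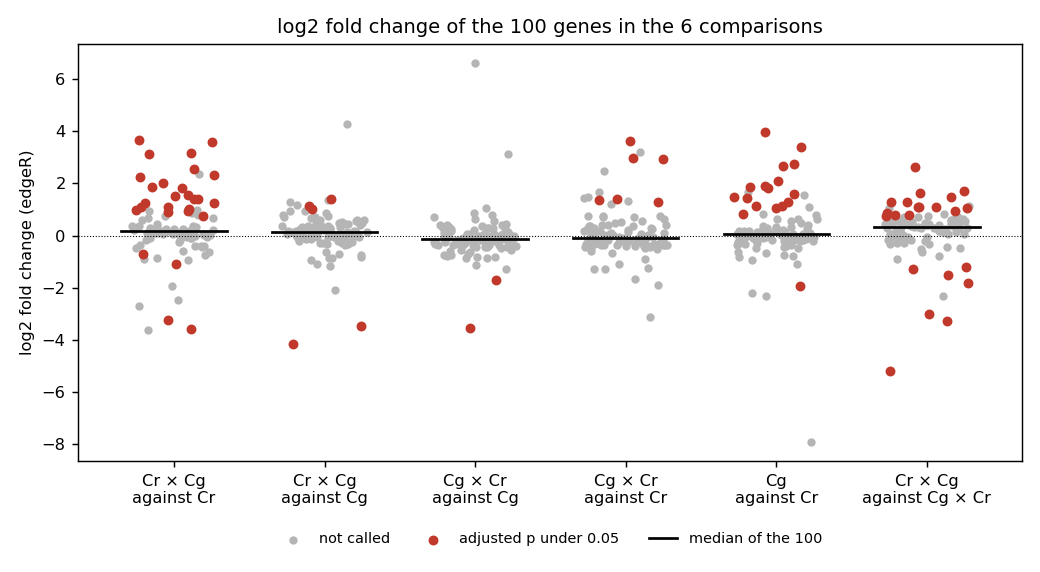
log2 fold change in edgeR (y axis) of each of the 100 genes in the 6 comparisons (x axis), with 1 point per gene, red for an adjusted p under 0.05, and a black line at the median of the 100. Calls lie mostly above 0 in Cr × Cg against Cr (23 higher, 4 lower) and in Cg against Cr (16 higher, 1 lower), and the points farthest from 0 in Cg against Cr (-7.94) and Cg × Cr against Cg (6.63) are the cruciferin homologue, not called.

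The plot of log2 fold changes shows that the median of the 100 stayed within 0.34 of 0 in every comparison, while single genes moved by up to 5.20 among those called. Over the 6 comparisons, 38 of the 100 genes were called at least once, beside 37.9% of all genes tested, and 62 were not called in any. The genes never called had a median fold of 1.73 between highest and lowest library. Of the 18 genes with a partner, 13 were called at least once, and of the 82 without one, 25.

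Members with a partner that were never called include homologues of a Rubisco subunit, a beta-amylase and a ribosomal protein. Carubv10021016m.g, paired with AT5G38430, RBCS1B, a small subunit of Rubisco, stood at 2018 and 1381 CPM in Cr, 2064 and 1257 in Cg, 1705 and 1425 in Cr × Cg, with 1718 and 1435 in Cg × Cr. Carubv10005077m.g, paired with the beta-amylase BAM5 (AT4G15210), stood between 1048 and 1939 CPM, and Carubv10001914m.g, paired with AT5G59240 for a small ribosomal subunit protein S8, between 789 and 1577 CPM. For each of these 3 genes the ranges of all crosses overlapped. Carubv10017048m.g, paired with the serine carboxypeptidase-like SCPL48 (AT3G45010), stood between 564 and 1117 CPM and was at 577 and 601 CPM in Cr × Cg, with an edgeR adjusted p of 0.35 against Cr.

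A further 3 genes with a partner were called between the hybrids only, 1 lower and 2 higher in Cr × Cg. Carubv10025920m.g, paired with AT5G49360, the beta-xylosidase BXL1, stood at 869 and 759 CPM in Cr, 1424 and 1055 in Cg, 415 and 719 in Cr × Cg, with 1434 and 1353 in Cg × Cr. It was lower in Cr × Cg than in Cg × Cr (log2 fold change -1.21, edgeR adjusted p = 0.029). The beta-galactosidase homologue Carubv10025963m.g (BGAL4, AT5G56870) was higher there, at 880 and 1367 against 624 and 490 CPM (1.10, adjusted p = 0.030). Carubv10011493m.g, paired with AT1G12010, ACO3, an ACC oxidase that makes ethylene, was also higher in Cr × Cg, at 1356 and 1633 against 872 and 442 CPM (1.27, adjusted p = 0.028). Each of these 3 calls was lost without any 1 of 3 of the 4 hybrid libraries, at adjusted p up to 0.18, and in a fit of only these crosses (0.054 to 0.059).

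Replicates of a cross differed by more than 4-fold in at least 1 cross for 8 of the 100 genes and by more than 2-fold for 23. Of the 10247 tested genes with a mean over 20 CPM, 1.7% and 10.2% did so. The 8 genes, chosen after their values were seen, together took 1.47 and 1.17% of the Cr libraries, 0.473 and 1.62% of Cg, 0.439 and 2.00% of Cr × Cg, and 0.936 and 1.98% of Cg × Cr. Without them the share of the rest was 9.48 and 8.19% in Cr, 12.15 and 12.03% in Cg, 13.02 and 12.67% in Cr × Cg, with 10.95 and 10.29% in Cg × Cr. The 4 crosses then did not overlap, in the order Cr, Cg × Cr, Cg, Cr × Cg. The 8 genes were picked on the spread within crosses, and leaving them out narrowed the range of every cross but Cg × Cr. The lack of overlap is therefore partly set by this choice.

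The 8 genes did not move as one. Carubv10007654m.g was higher in replicate 2 of every cross, as Carubv10012765m.g was outside Cr, at 606 and 1557 CPM in Cr, 205 and 3452 in Cg, 380 and 3049 in Cr × Cg, with 705 and 4306 in Cg × Cr. Carubv10012753m.g was higher in replicate 2 of Cr, Cg and Cr × Cg, at 22.2 and 1894, 31.7 and 1063, and 39.3 and 1760 CPM, but in replicate 1 of Cg × Cr, at 1307 and 173 CPM. In each cross, the study gives the lower mapping efficiency for the library where Carubv10012753m.g was higher. A link between them was not tested. Carubv10027331m.g was higher in replicate 1 of every cross, at 2398 and 1256 CPM in Cr, 629 and 101.6 in Cg, 567 and 74.4 in Cr × Cg, with 408 and 18.9 in Cg × Cr. None of these genes was called in any comparison. Of the 8, only Carubv10024341m.g and Carubv10025489m.g were called in any.

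**Figure D4:**
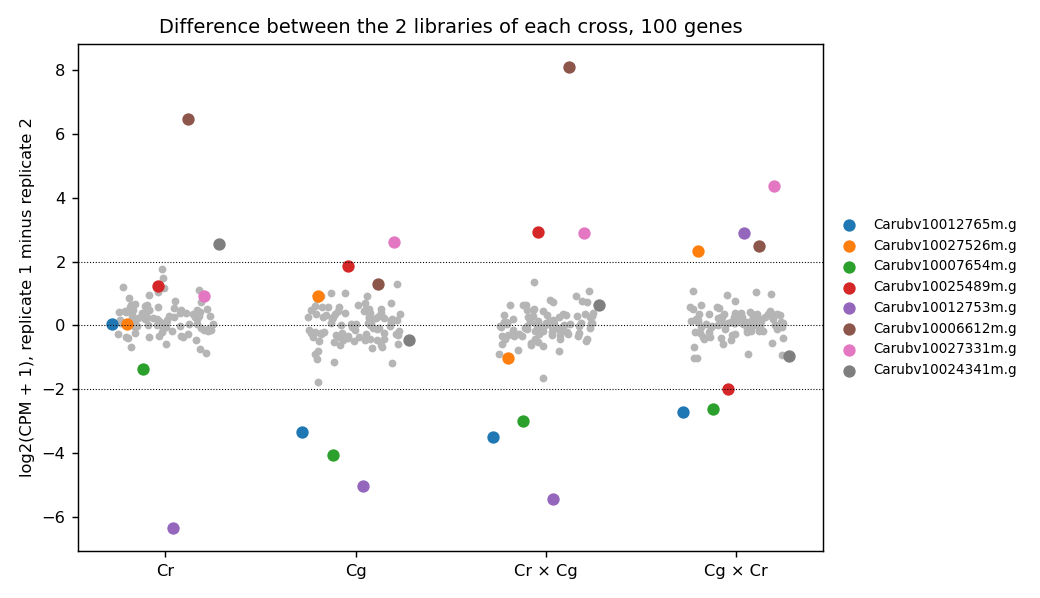
Difference between the libraries of each cross (y axis, log2 of CPM plus 1, replicate 1 minus replicate 2) for the 100 genes in the 4 crosses (x axis), with the 8 genes that differ over 4-fold in some cross coloured and the others grey. Dotted lines mark no difference and a 4-fold difference either way, and the median size of the difference lies between 0.260 and 0.382 in the 4 crosses.

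Another of these 8 genes was the only seed storage protein among the 100 that could be named. Carubv10006612m.g, paired with AT4G28520, cruciferin C, a 12S globulin, stood at 3848 and 42.5 CPM in Cr, 11.8 and 4.15 in Cg, 308 and 0.121 in Cr × Cg, with 1377 and 244 in Cg × Cr. Replicate 1 was the higher library in all 4 crosses, and the lowest value rests on 3 counts. The gene entered the 100 mainly through Cr replicate 1, and it was called in no comparison (lowest edgeR adjusted p = 0.21, for Cg against Cr).

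Homologues of other storage proteins and oleosins were looked at beside it, from a list of 12 Arabidopsis genes of which 9 were paired: 3 cruciferins, 2 albumins of the 2S type and 4 oleosins. Their summed level was 12070 and 833 CPM in Cr, 338 and 168.5 in Cg, 1052 and 33.5 in Cr × Cg, with 4502 and 2110 in Cg × Cr. The sum was higher in replicate 1 of each cross, and replicate 1 was the higher library in 34 of 36 pairs of a gene and a cross. Both Cg × Cr libraries lay above both Cg and both Cr × Cg libraries, and the Cr libraries lay on either side of Cg × Cr.

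None of the 9 was called in any of the 6 comparisons by edgeR. For the counts at an unadjusted p and by DESeq2 below, no share over all genes tested is given. The median log2 fold change of the 9 was -7.94 for Cg against Cr, where 5 had an unadjusted p under 0.05 and DESeq2 called 5 lower, and 5.87 for Cg × Cr against Cg, where 2 had an unadjusted p under 0.05 and DESeq2 called 2 higher. It was -3.63 for Cr × Cg against Cr (2 at an unadjusted p under 0.05, 0 by DESeq2), -2.67 for Cr × Cg against Cg × Cr (2 and 2), 3.29 for Cr × Cg against Cg (0 and 1) and -1.07 for Cg × Cr against Cr (0 and 0). These storage genes are markers of a later stage of the embryo, and whether seeds of the replicates differed in stage was not tested.

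**Figure D5:**
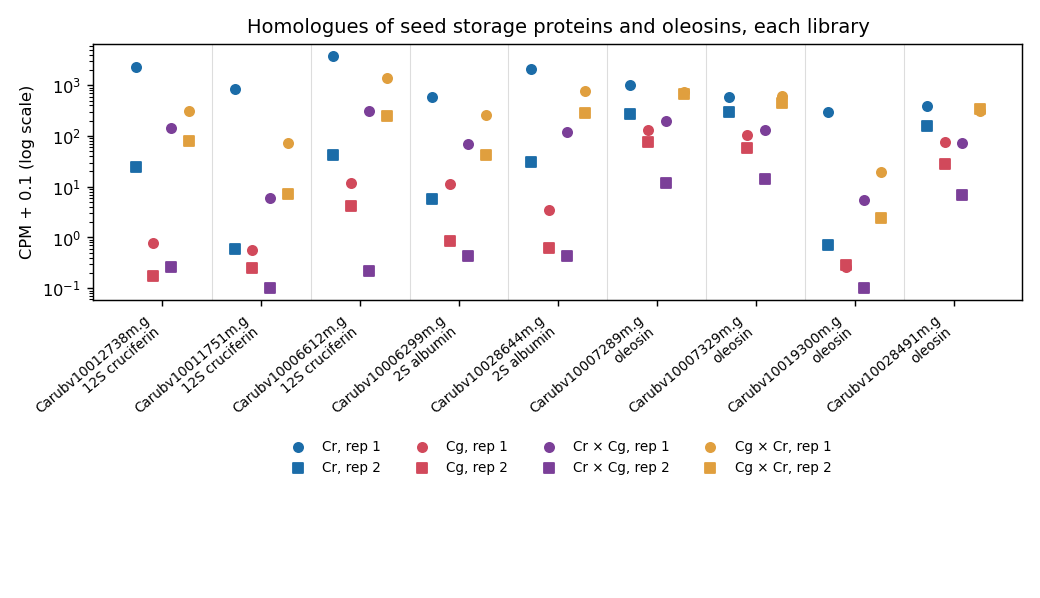
Level on a log scale (y axis, CPM plus 0.1) of the 9 paired homologues of seed storage proteins and oleosins (x axis) in each of the 8 libraries, with circles for replicate 1 and squares for replicate 2, coloured by cross. In the cruciferins and albumins Cr replicate 1 is the highest point, at up to 3848 CPM, and replicate 2 of Cr × Cg or of Cg the lowest.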

How the data were processed

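RNA of whole seeds was sequenced in 8 libraries, 2 for each of 4 crosses, which the labels and column names give. The authors trimmed the reads, aligned them with Stampy to the genome of C. rubella, discarded multi-mapped reads and deposited raw counts of reads per annotated gene from HTSeq, without normalization. The submitters' processing notes name Trimmomatic, SAMtools and HTSeq. HTSeq was run with its default options, whose strand setting is not spelled out in the sources used here, so a gene and its antisense partner cannot be told apart.

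CPM used the total of each column of 26521 genes, and library totals ranged from 24838286 to 34290034 counts. Counts were tested with edgeR 4.0.16 in R 4.3.3: filterByExpr with a count minimum of 10, TMM scaling (factors 0.955 to 1.03), a robust quasi-likelihood fit of all 8 libraries with 4 residual degrees of freedom and a common dispersion of 0.0918, and Benjamini-Hochberg adjustment over 21214 genes, called at 0.05. The SE of a log2 fold change is its size divided by the square root of the F statistic and restates the test. Over the tested genes, log2 fold changes had medians between -0.018 and 0.03. The fit was tried on simulated counts drawn with a lower dispersion than that of the data, so its error rate here was not measured. Other steps used Python 3.11.15, pandas 2.3.3, NumPy 2.4.6 and matplotlib 3.10.9. P-values rest on the spread between 2 pooled seed samples a cross.

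The members and lists were chosen with earlier results of these data known. Genes named in full were the 10 of highest mean CPM, the 4 called members of largest log2 fold change in each direction and comparison, members called alike against both parents, and the genes on either side of the limit of the list, 26 members in the first 3 classes. A further class, by product group, could not be applied for want of product names, and all 18 members with an Arabidopsis partner were described instead, a choice made after their values were seen. No sequence or gene length was used. Arabidopsis partners came from the identifiers in the study's supplementary tables, whose values were not used.

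Alternatives were DESeq2 1.42.0, its size factors in edgeR, scaling by the library total, no filter, a fit to the 2 crosses compared alone, a log2 fold change of 1 or more in size as a further condition, the replicate number as a block, each library left out in turn, and other choices of the members. Where 1 library of a cross was left, it was assumed to vary like the other crosses.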

Additional observations from a re-analysis of the deposited data

Results flagged for a closer look

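Both hybrids have the same parental species in opposite roles, so the test of Cr × Cg against Cg × Cr is the test of whether their differences from the parents differ. Of the 34 members named by rank, by a call or by a partner, 14 were past the threshold in this edgeR test. Over all genes tested, 11.6% were called higher and 13% lower. Some of the 14 were named because of this same test, so the count is partly set by the choice. The 9 higher in Cr × Cg were Carubv10027521m.g (log2 fold change 2.63), Carubv10027450m.g (1.69), Carubv10003889m.g (1.62), Carubv10009402m.g (1.46), Carubv10022875m.g (1.28), Carubv10011493m.g (1.27), Carubv10016221m.g (1.11), Carubv10025963m.g (1.10) and Carubv10004693m.g (1.05). The 5 lower were Carubv10025489m.g (-5.20), Carubv10018643m.g (-3.29), Carubv10004613m.g (-3.03), Carubv10020984m.g (-1.82) and Carubv10025920m.g (-1.21). The calls of Carubv10027521m.g, Carubv10018643m.g and Carubv10004613m.g held with any 1 library left out, and the other 11 were lost in at least 1 such fit. Groups of 2 libraries are too small for a test of single outlying samples.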

How the results depend on the processing

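Counts of called members held within 1.5 times the main count under most settings other than leaving out a library. Without a library of the crosses compared, they often moved further. DESeq2 called more than edgeR. It gave 16 for Cr × Cg against Cg (5 in edgeR), 11 for Cg × Cr against Cg (2), 17 for Cg × Cr against Cr (6), 27 for Cg against Cr (17), and, against both parents, 10 for Cr × Cg (4) and 1 for Cg × Cr (0). A fit of only the crosses compared gave 11 for Cg against Cr and 14 for Cr × Cg against Cg × Cr (22), and no filter gave 1 for Cg × Cr against both parents. With each library left out in turn, the counts ran from 8 to 24 for Cr × Cg against Cr (27), 2 to 7 for Cr × Cg against Cg, 1 to 2 for Cg × Cr against Cg, 1 to 6 for Cg × Cr against Cr, 4 to 16 for Cg against Cr, 5 to 19 between the hybrids, and against both parents 2 to 5 for Cr × Cg and 0 to 1 for Cg × Cr. Of 54 calls of genes named in the text, 15 held in every such fit, 39 were lost in at least 1, 20 were lost in at least 1 other fit, and 0 changed direction. Fits with 1 library left out have fewer libraries, and the cause of the other changes was not tested. The lowest count of a member in a library was 3, so depth limited few of the values.

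No source used here says that same-numbered libraries belong together, and their deviations from the cross means correlated between -0.176 and 0.333. With the replicate block, the 6 comparisons had 28, 6, 2, 5, 14 and 21 called members, in the order of Cr × Cg against Cr and Cg, Cg × Cr against Cg and Cr, Cg against Cr, and Cr × Cg against Cg × Cr, and 4 and 0 against both parents. Of these, 25, 4, 2, 3, 12 and 20, and 3 of the 4 against both parents, were also called without the block. It lost 8 of the 54 named calls, at adjusted p from 0.051 to 0.077, among them that of Carubv10007604m.g in Cr × Cg against Cg (0.06), which was then not above both parents.

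The mean shares depended on the list. In the order Cr, Cg, Cr × Cg and Cg × Cr, the 50 highest genes took 6.37, 9.34, 10.34 and 8.49%, the 200 highest 15.20, 18.55, 19.46 and 16.89%, and the members without the 10 highest, left out of the total too, 8.37, 9.01, 9.63 and 8.62%. Without the gene with most reads, chosen after seeing the data, the shares of Cg, Cr × Cg and Cg × Cr were 11.49, 12.78 and 10.76%, and without the 8 members of wide replicate spread, also chosen after seeing the data, those of all 4 were 8.83, 12.09, 12.85 and 10.62%. In Cg × Cr the share was 11.79% for the genes of highest median and 11.66% for members chosen on the other replicate number. Leaving out 1 library gave 9.36 to 10.95% in Cr, 12.62 to 13.65% in Cg, 13.46 to 14.67% in Cr × Cg and 11.89 to 12.27% in Cg × Cr. Ranking by reads per coding length was not run, since no lengths were used here.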
